A study of Mus musculus with 9 samples.

Results

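Agilent mouse arrays of this design carry, beside probes for annotated transcripts, probes whose only name is a genome interval with a strand letter, such as chrX:54627918-54638568_R. Of the 55681 non-control probes, 16194 were named in this way, for 4610 interval names of build mm9. The scanner software marks each spot that is well above background. A probe was kept when all 3 arrays of 1 or more diet groups carried this mark, and 8634 probes (53.3%), from 3720 interval names, met this rule. They are called the kept probes below. The same rule kept 66.7% of the 39487 other non-control probes. Whether the intervals are intergenic was not checked, since gene positions on mm9 were not used here, and the genes nearest to them were not analysed here. Probe sequences were not used here, and each interval is given by its coordinates and its strand letter. F and R are taken as the forward and reverse strand, although the files do not say what they stand for.

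Long intergenic noncoding RNAs are transcripts, often spliced and capped like messenger RNA, that lie between protein-coding genes and encode no long protein. Many such RNAs were first marked out by the chromatin of active promoters and transcribed bodies, and others by sequenced cDNA. Most are expressed at lower levels and in fewer cell types than coding genes. In red cell precursors several such RNAs are known to be switched on during maturation, and a few are needed for enucleation or survival of the cells.

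Erythroblasts are the nucleated precursors of red cells. The cells of every group were wild-type C57BL/6J erythroblasts of the gate called subset II, taken from bone marrow of mice labelled female, and 3 arrays were made per group, which the study's design text calls biological replicates. Mice of the first group ate a normal diet and their age is not given in the sources used here. The other groups ate a low iron diet from weaning, for 3 weeks or for 7 weeks. The series is about iron deficiency anemia, and each comparison with the normal diet asks what differed in these cells after that time on the diet. Whether a sample came from 1 mouse or a pool is not stated. Total RNA was amplified with aminoallyl nucleotides for Cy3 labelling and 1-colour hybridisation. Fewer transcribing cells and less RNA per cell cannot be told apart.

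Several facts about the arrays bear on every result below. All 9 tested erythroid marker genes were well above background on all 9 arrays. Xist, the RNA that coats the inactive X chromosome of female cells, went against the sex label on 2 arrays: its 7 probes read -7.39 to -3.22 on normal diet replicate 1 and -6.80 to -3.30 on replicate 2, against -0.73 to 2.29 on replicate 3 and -2.06 to 3.28 on the low iron arrays (scaled log2 signal, explained in the next paragraph). These arrays are therefore written of as the libraries labelled normal diet replicates 1 and 2, and results are also given with replicate 3 as the only control. No slide or scan held arrays of more than 1 group, so diet cannot be told apart from slide. The signal's 75th percentile ran from 1499 to 1616 on normal diet, from 1677 to 1837 at 3 weeks and from 791.7 to 1087 at 7 weeks. Relative to it the spike-in controls had a mean log2 of 0.50 to 1.74, 1.10 to 1.57 and 4.44 to 5.35 on the same arrays. A scaled difference is therefore relative to the array's other probes.

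Levels are given as scaled log2 signal, the log2 of the background-subtracted signal minus the array's 75th percentile, so 0 is the level of that percentile. The median kept probe had a level of -2.64, and the median of the other tested probes was -0.51. The kept probes' means over the 9 arrays ran from -5.89 to 8.57, and 1328 of them (15.7% of those tested) lay at or above the 75th percentile. A probe's brightness depends on its own sequence as well as on its RNA, so levels of different probes are not amounts of RNA that can be compared. The median SD over 3 arrays was 0.29 for the normal diet group, 0.33 for 3 weeks and 0.46 for 7 weeks, against 0.29, 0.32 and 0.56 for the other tested probes.

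Fewer kept probes were detected at 7 weeks. Coordinate-named probes well above background made up 56.8% to 57.2% on the normal diet arrays, 44.6%, 55.4% and 62.1% at 3 weeks, and 32.1%, 37.7% and 41.8% at 7 weeks. The other non-control probes were also detected least at 7 weeks, with 68.4% to 69.3%, then 60.8%, 69.4% and 73.6%, then 49.6%, 54.1% and 57.5%. For coordinate-named probes, replicates 1 and 2 at 3 weeks and all 7 week arrays lay below the normal diet arrays, while replicate 3 at 3 weeks lay above them. For the other probes replicate 2 at 3 weeks (69.4%) lay just above normal diet as well. Of the 8634 kept probes, 4321 met the rule in all 3 groups, 2228 in normal diet and 3 weeks, and 1620 (18.8%) in normal diet alone. Another 250 met it at 3 weeks alone, 58 at 7 weeks alone, 127 in normal diet and 7 weeks, and 30 in the low iron groups only. Among other probes that passed, 67.0% did so in all groups and 9.72% in normal diet alone. The detection limit differed between arrays: the dimmest spot called well above background lay between -6.12 and -5.73 on normal diet, between -7.22 and -4.40 at 3 weeks and between -5.30 and -3.03 at 7 weeks. The part of this limit in the detection counts was not tested.

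**Figure D1:**
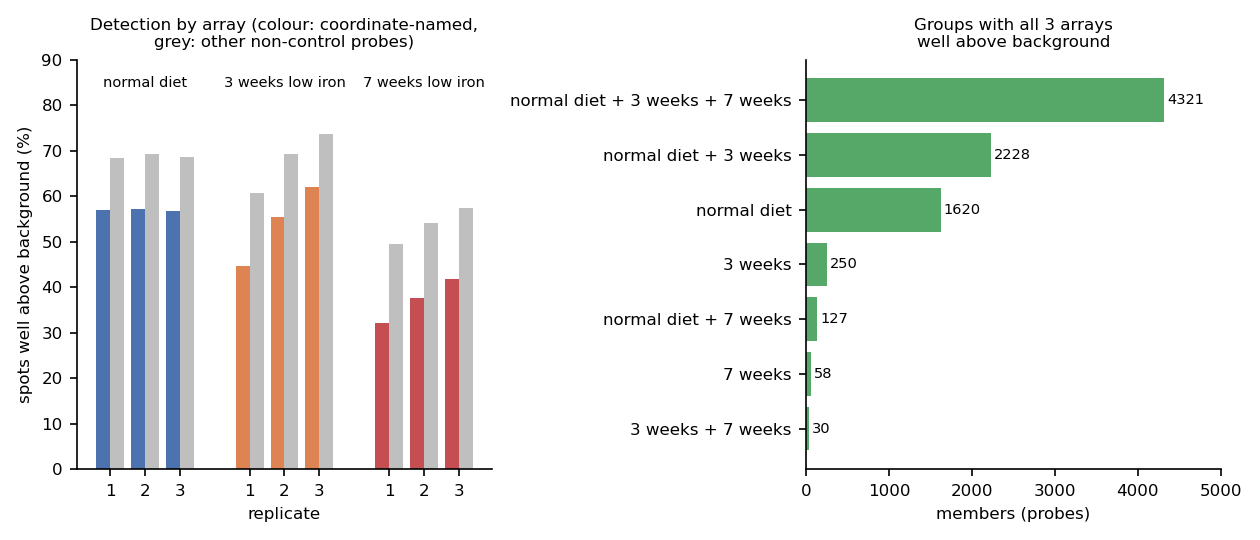
The left plot shows the percent of spots well above background on each of the 9 arrays, in colour for coordinate-named probes and in grey for the other non-control probes; the 7 week arrays have the lowest bars, at 32.1% to 41.8% for coordinate-named probes. The right plot shows how many kept probes met the rule in each combination of groups, with 4321 in all 3.

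The rule is one of detection in every array of a group and not of brightness. Just inside it, A_30_P01027641 (chr17:22916801-22954670, R) was well above background on the 3 week arrays only, at -4.03, -5.07 and -5.69. A_30_P01017597 (chr11:69191351-69191995, R) was so on the normal diet arrays only, at -4.96, -4.64 and -5.01. Just outside it, A_30_P01033113 (chr1:167797581-167803031, F) was well above background on 6 arrays, 2 in each group, with normal diet levels of -5.35, -2.27 and -2.62. In all, 1196 probes outside the rule missed it by 1 array of a group, and 4201 of the 7560 outside were well above background on no array.

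The share kept is given by strand, interval length and chromosome. There were 4267 kept probes of 8171 on the forward strand and 4362 of 8010 on the reverse strand. The intervals ran from 62 bases to 7128487 bases with a median of 10676. When the probes were put in 4 classes by interval length, 48.9% were kept in the shortest, 55.4% and 56.7% in the middle classes and 52.3% in the longest, and the median level lay between -2.72 and -2.60 in each. By chromosome the share kept ran from 45.1% on chromosome 10 to 60.8% on chromosome 5, with 48.0% on X. Many intervals were covered more than once: 1353 names had 3 or more kept probes, and up to 10 probes shared 1 name, so probes of a name are readings of 1 interval and not separate transcripts.

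Some probes were named for a high mean signal, which says nothing of their RNA relative to other probes. Probes A_30_P01018662, A_30_P01022075 and A_30_P01025369 are placed in chr17:17481706-17482457, R. A_30_P01022075 read 8.21, 8.38 and 8.26 on normal diet, 8.12, 8.20 and 8.01 at 3 weeks, and 9.61, 9.35 and 8.99 at 7 weeks. The 7 week arrays were above all others, by 1.03 ± 0.25 (limma's log2 difference from normal diet ± SE, n = 3 per group, adjusted p = 0.0156). Without scaling between arrays the 7 week differences of the 3 probes were 0.06, 0.23 and 0.09. All 3 calls were lost without normal diet replicate 1 or 3 and some without normal diet replicate 2 or 7 week replicate 2 (adjusted p up to 0.0889). A_30_P01031754 (chr19:5801802-5802597, R) read 7.78, 8.02 and 7.98 on normal diet, 7.73, 7.46 and 7.25 at 3 weeks and between 7.70 and 9.44 at 7 weeks. Its 7 week arrays overlapped with both other groups, and their difference from normal diet, 0.46 ± 0.43, did not pass (adjusted p = 0.440) and was -0.35 without scaling. A short interval, chr6:116123643-116124550, F, had 3 kept probes, and none of them passed in any comparison, with 7 week differences of -0.60 to 0.19, of which 0.08 and 0.19 turned to -0.72 and -0.61 without scaling. In a chromosome 9 interval, chr9:14460976-14488051, the 5 probes of strand F read between 5.17 and 7.35 on every array and 4 of them fell at 7 weeks, with differences of -1.14 to -0.81. These calls were not stable: 2 were lost in 8 of 9 fits that left out 1 array, all but the one without 7 week replicate 1, and the other 2 without normal diet replicate 1 (adjusted p up to 0.135).

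Differences were tested with limma on 8466 kept probes with a usable spot on every array, in 1 fit over all 34490 probes tested, with Benjamini-Hochberg adjustment and a threshold of 0.05. The kept probes were chosen by detection on these same arrays, so counts over them are descriptions. A probe that met the rule in 1 group only was kept because it was bright there, and its difference from that group is given as values with no p. Where no array of a group had the probe well above background, the fold is a bound, "at least", taken against the higher of the array's lowest well-above-background signal and the probe's own.

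At 3 weeks of low iron diet, 210 kept probes were higher and 881 lower than on normal diet. Together they were 12.9% of the kept probes tested, against 13.2% of all probes tested, and by direction 2.48% and 10.4% against 3.42% and 9.77%. These shares are near the background and say nothing particular about the coordinate-named probes. Among the 4262 well above background on all 9 arrays, 143 were higher and 703 lower (19.8%, against 19.6% of all such probes, of which 4.49% were higher and 15.1% lower). The median difference of the kept probes was -0.27, beside -0.20 over all probes tested. With no scaling between arrays 228 were higher and 482 lower, and the median over all probes was -0.04. The count rested on few arrays: it was 554, 211 or 447 without normal diet replicate 1, 2 or 3, and 370, 288 or 502 without 3 week replicate 1, 2 or 3. It was 1724 without 7 week replicate 1. When replicate 3 was the only normal diet array in the limma fit it was 0, and 1094 had an unadjusted p under 0.05.

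**Figure D2:**
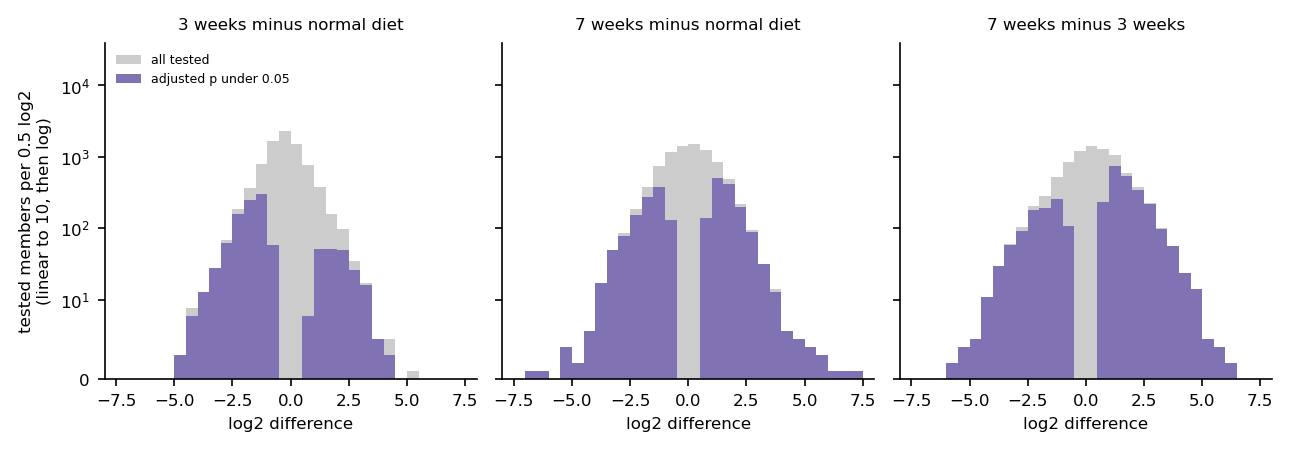
Each plot shows the number of tested kept probes by log2 difference in bins of 0.5 for 1 comparison, on an axis that is linear to 10 and logarithmic above; purple marks those with an adjusted p under 0.05. Calls lie mainly below 0 at 3 weeks (881 of 1091) and mainly above 0 in the comparison of 7 with 3 weeks (2304 of 3242).

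The rises at 3 weeks included a pair of overlapping X-linked intervals in which every probe rose. All 5 probes of chrX:54627918-54638568, R, were higher, by 2.25 to 2.89. A_30_P01024871, for example, read -1.04, -1.53 and -0.94 on normal diet, 1.96, 1.21 and 1.99 at 3 weeks and 0.13, 0.87 and 0.30 at 7 weeks, a 3 week difference of 2.89 ± 0.33 (adjusted p = 0.00649). Its 3 groups did not overlap, with 3 weeks highest and 7 weeks between. The 3 probes of chrX:54636915-54638388, R, which lies inside the former interval, rose by 2.50 to 3.46, and 1 of these calls (A_30_P01030640) was lost without normal diet replicate 2 (adjusted p = 0.0510). In A_30_P01026775 of this interval the levels were -2.47, -3.61 and -2.75, then 0.82, 0.03 and 0.70, then -1.90, -1.44 and -1.96. Against normal diet replicate 3 alone the differences of these 8 probes at 3 weeks were 2.37 to 3.27.

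A chromosome 16 interval, chr16:23992037-24001037, had 13 kept probes and rose at 3 weeks mainly on its forward strand. Of 7 probes on strand F, 6 were higher, with differences of 1.35 to 4.01 over the 7, and of 6 probes on strand R, 2 were higher, with 0.28 to 3.52. One of the latter calls, A_30_P01022259, was lost without any normal diet array or 3 week replicate 1 or 2 (adjusted p up to 0.0733). The other, A_30_P01025497, was kept through the 3 week group alone. A_30_P01033600 on strand F read -4.53, -3.60 and -2.78 on normal diet, 1.26, 0.52 and -0.65 at 3 weeks and -2.07, -2.10 and -2.07 at 7 weeks. The 3 week arrays were above all others, by 4.01 ± 0.54 (adjusted p = 0.00684). A_30_P01020303, also on strand F, read -2.27, -1.56 and -1.17, then 2.33, 2.09 and 0.88, then 0.24, 1.06 and 1.02. Its 7 week arrays too were above normal diet, by 2.44 ± 0.46 (adjusted p = 0.00715), and overlapped with 3 weeks. The adjoining interval chr16:23989160-23992539, F, whose end overlaps the start of the former, had 2 kept probes, and both were higher at 3 weeks. One of them, A_30_P01020700, was well above background at 3 weeks (-2.41, -2.49 and -3.90) and on none of the normal diet arrays, at least 7.98-fold higher.

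Other rises at 3 weeks stood in single probes or short intervals. The 3 probes of chr8:54656692-54657238, R, rose by 1.57 to 2.37 and none differed at 7 weeks, where their differences were -0.20 to 0.49 (that of 0.49 was -0.32 without scaling). All 3 calls at 3 weeks were lost without normal diet replicate 2 or 3 week replicate 1, and 2 of them also without normal diet replicate 1 or 3 or 3 week replicate 3 (adjusted p up to 0.0876). A_30_P01023792 (chr2:176264400-176302925, R) read -3.63, -3.39 and -3.42 on normal diet, 0.66, 1.13 and -0.20 at 3 weeks and 2.53, 0.05 and -1.73 at 7 weeks. Both low iron groups were above normal diet, by 4.01 ± 0.89 (adjusted p = 0.0233) and 3.76 ± 0.89 (adjusted p = 0.0152). Its 3 week call was lost without any of 5 arrays in turn (the 3 normal diet arrays and 3 week replicates 1 and 2), with differences of 3.71 to 4.38 and adjusted p up to 0.0863. Its 7 week call was lost without normal diet replicate 1 (adjusted p = 0.0562). The other tested probe of this name was not called at 3 or 7 weeks (0.12 and -0.26). Among the named probes that were well above background on every 3 week array and on no normal diet array were also A_30_P01020345 on chromosome 12, A_30_P01025492 on chromosome 6 and A_30_P01024273 on chromosome 7, at least 6.19, 9.38 and 5.77-fold higher. The other tested probe of the chromosome 12 name (-0.03) and the others of the chromosome 7 name (-0.61 and 0.57) were not called at 3 weeks.

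Some markers of other marrow cells moved at 3 weeks too. Of 8 tested monocyte and macrophage markers, all well above background on every array, 4 were higher, and their summed level (linear, relative to the 75th percentile) was 60.6 to 86.7 at 3 weeks against 31.1 to 46.9 on normal diet. Of 6 B lineage markers 2 were higher, with sums of 9.21 to 22.3 against 4.27 to 6.97, and of 9 neutrophil markers 2 were higher, with overlapping sums of 293 to 497 and 221 to 634. None of 6 T and NK cell, 5 megakaryocyte and platelet, 5 mast cell, basophil and eosinophil and 9 erythroid markers was called at 3 weeks. The mast cell, basophil and eosinophil sums ran from 0.565 to 24.4 there, against 13.3 to 23.7 on normal diet. Erythroid sums were 1675 to 1795 against 1919 to 2030. The part of these marker lists in the rises of the coordinate-named probes was not tested.

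**Figure D3:**
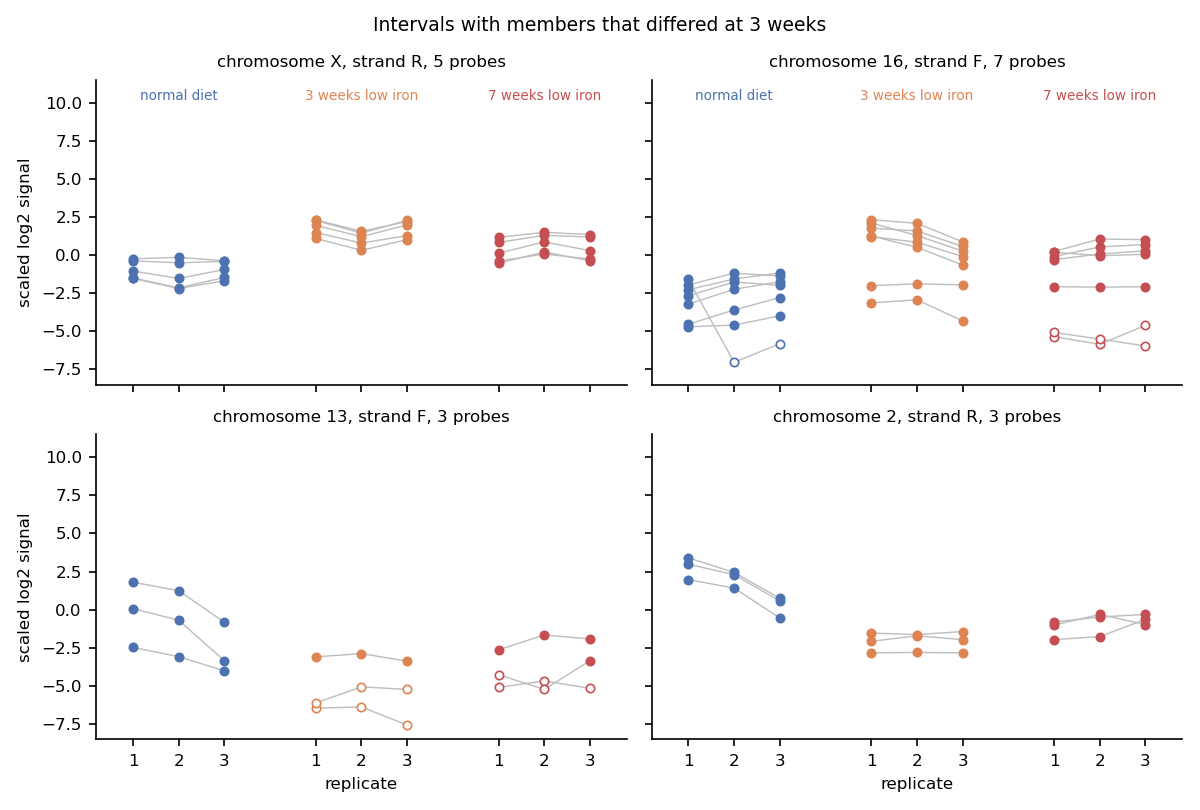
Scaled log2 signal of every tested probe of 4 intervals on the 9 arrays, filled where well above background and open where not; grey lines join the values of 1 probe within a group and imply no order. The upper plots are chrX:54627918-54638568 (R) and chr16:23992037-24001037 (F), called higher at 3 weeks in 5 of 5 and 6 of 7 probes; the lower ones are chr13:16050871-16065396 (F) and chr2:152172745-152184745 (R), where normal diet replicate 3 lies between replicates 1 and 2 and the 3 week arrays.

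The library labelled normal diet replicate 3 was the lowest of its group in a larger share of the falls at 3 weeks than of all kept probes. In 338 of the 881 lower probes (38.4%) it was the lowest of the 3, against 24.1% of all kept probes tested. The rises mirrored this: in 101 of the 210 higher probes (48.1%) it was the highest, against 34.4%. All 3 probes of chr13:16050871-16065396, F, were lower, with differences of -4.15 to -3.61. Of these, A_30_P01032151 and A_30_P01029198 were kept through normal diet alone, where they were bright, so their falls are given as values with no p. They were well above background on no 3 week array, and at least 11.9 and 5.99-fold lower there. The call of A_30_P01032151 was also lost without normal diet replicate 1 or 2 or 3 week replicate 1 or 2. A_30_P01026340, well above background on every array, read 1.80, 1.24 and -0.83 on normal diet, -3.10, -2.89 and -3.38 at 3 weeks and -2.64, -1.66 and -1.93 at 7 weeks. Both low iron groups lay below all normal diet arrays, with differences of -3.86 ± 0.61 (adjusted p = 0.00896) and -2.81 ± 0.61 (adjusted p = 0.0116). Against replicate 3 alone they were -2.29 and -1.24.

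The same shape was seen in chr2:152172745-152184745, R, where 3 of 3 probes were lower at 3 weeks, with differences of -4.12 to -3.49. A_30_P01019020 read 2.98, 2.29 and 0.57 on normal diet, -1.54, -1.64 and -1.44 at 3 weeks and -0.81, -0.49 and -0.31 at 7 weeks. Its difference at 3 weeks was -3.49 ± 0.53 (adjusted p = 0.00798) and, against replicate 3 alone, -2.11. In chr13:98528250-98551125, F, all 3 probes were lower, with differences of -2.61 to -1.62, and against replicate 3 alone the differences were -1.29, -1.03 and -0.72. Each of these 3 calls was lost without normal diet replicate 1 or 2 or any 3 week array, and 1 also without 7 week replicate 3 (adjusted p up to 0.137). A_30_P01023833 (chr2:143963320-143984245, F) read 3.72, 3.16 and 1.39, then -1.40, -1.20 and -1.40, then 0.92, 0.61 and 0.69. Its 7 week arrays lay between the other groups, and its 3 week difference was -4.09 ± 0.52 (adjusted p = 0.00649). Of the 5 tested probes of this name, 2 were lower at 3 weeks. A_30_P01027290 (chr1:193815525-193825775, R) was well above background on normal diet alone, at 0.00, -0.77 and -2.01, and was at least 17.2-fold lower at 3 weeks and at least 8.51-fold lower at 7 weeks.

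In 1 X-linked interval the normal diet arrays differed little. The 3 probes of chrX:98658045-98677545, F, fell at 3 weeks, with differences of -3.14 to -2.56. All 3 calls were lost without normal diet replicate 2 or 3 week replicate 2, and 2 of them also without normal diet replicate 1 or 3 or 3 week replicate 1 (adjusted p up to 0.0729). A_30_P01029231 read 4.96, 4.80 and 4.86 on normal diet, 1.89, 1.26 and 2.06 at 3 weeks and 3.32, 5.65 and 5.68 at 7 weeks. The 3 week arrays were lowest (difference -3.14 ± 0.58, adjusted p = 0.0138), and the 7 week arrays lay on both sides of normal diet (0.01 ± 0.58, adjusted p = 0.993, and -0.80 without scaling). Of the 8 largest rises at 3 weeks 7 kept their call whichever array was left out, and of the 8 largest falls 6 did. Some of these probes were kept only because they were bright in 1 of the groups compared, so for them these counts are no support. These 16 were chosen with groups that did not overlap, so their direction against replicate 3 alone could not differ. The differences from it were 2.13 or more in size.

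At 7 weeks of low iron diet, 1419 kept probes were higher and 1095 lower than on normal diet. Together they were 29.7% of those tested, against 30.3% of all probes tested, and by direction 16.8% and 12.9% against 13.5% and 16.8%. The median difference was 0.07, beside -0.13 over all probes. The split depended on the scaling and the background: with no scaling between arrays 461 were higher and 3153 lower and the median over all probes was -0.94, and with normexp background correction 2004 were higher and 479 lower. Among those well above background on all 9 arrays, 1324 were higher and 274 lower (37.5%, against 36.4% of all such probes, of which 20.8% were higher and 15.7% lower). Of the 1095 lower probes, 645 were below that mark on each 7 week array. Of the 1419 called higher, 1402 had a difference above 0 without scaling, called or not. The count was 1050 without normal diet replicate 1 and 1450 without replicate 3, and 19 (4 higher, 15 lower) against replicate 3 alone, where 1746 had an unadjusted p under 0.05.

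A short X-linked interval, chrX:50407969-50410370, R, was high at 7 weeks in each of its probes. Its 3 probes were well above background on every 7 week array and on no normal diet array, and were kept through the 7 week group alone. A_30_P01024529 read -4.90, -5.81 and -7.01 on normal diet, -5.60, -4.78 and -4.69 at 3 weeks and -0.00, 0.27 and -0.38 at 7 weeks. The 7 week arrays stood apart from the other 6 in all 3 probes, at least 45.6, 38.9 and 56.5-fold above normal diet.

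In chr6:31078802-31079644, R, 3 of 3 probes rose at 7 weeks, by 2.39 to 4.50, and none differed at 3 weeks. A_30_P01029853 read -3.66, -3.12 and -3.01 on normal diet, -2.95, -3.39 and -4.56 at 3 weeks and 1.57, 0.32 and 0.17 at 7 weeks, a difference of 3.95 ± 0.50 from normal diet (adjusted p = 0.00240) that was 3.14 without scaling. The 7 week arrays were above all others. The 3 probes of chr17:29571806-29603008, F, rose by 2.73 to 3.89 and those of chr17:32229024-32229663, F, by 2.58 to 3.18. In the former 2 calls and in the latter 1 were lost without normal diet replicate 1 (adjusted p up to 0.0580). A_30_P01025806 (chr13:19617358-19617879, F) read -4.32, -2.62 and -4.26, then -3.11, -3.38 and -4.07, then 2.92, 3.05 and 0.88, so the 7 week arrays lay far above the other groups, which overlapped. Its difference from normal diet was 6.02 ± 0.66 (adjusted p = 0.00170).

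Some intervals rose in part of their probes. In chr9:68349343-68411643, F, 3 of the 8 probes on the array were kept and 2 of them were higher at 7 weeks. A_30_P01023285 was not well above background before (-7.13, -7.17 and -7.10 on normal diet, -6.19, -5.47 and -6.84 at 3 weeks) and read 1.82, -0.90 and -0.46 at 7 weeks, at least 67.9-fold above normal diet. A_30_P01025124 of the same interval was at -2.82, -2.30 and -3.06 at 7 weeks and -3.16, -2.56 and -2.83 on normal diet, and these overlapped (0.12 ± 0.29, adjusted p = 0.772, and -0.68 without scaling).

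In chr4:123361002-123364781, R, 1 of 2 kept probes rose: A_30_P01033245, well above background on 1 of 3 normal diet arrays (-5.15, -4.04 and -5.30) and on none at 3 weeks, read 1.14, 1.49 and -0.28 at 7 weeks. Probes of chr17:29183003-29217681, R, all 4 of them, read highest on 7 week replicate 1. A_30_P01020960 read -7.37, -6.90 and -7.28 on normal diet, -0.79, -0.48 and -4.93 at 3 weeks and 2.30, -5.26 and -2.54 at 7 weeks. Its low iron arrays spread over more than 7 log2 units, and its call at 7 weeks (5.35 ± 1.77, adjusted p = 0.0482) was lost without any of 7 arrays in turn, with adjusted p up to 0.126.

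Of the 8 largest falls at 7 weeks, 4 lay in a chromosome 2 interval whose probes split into separate sets. Of the 8 probes on strand F of chr2:155269145-155303251, 4 were well above background on the 6 other arrays and on none of the 7 week arrays. A_30_P01021710 read 2.06, 0.77 and 1.28 on normal diet, 0.33, 0.42 and 0.34 at 3 weeks and -5.05, -5.52 and -5.65 at 7 weeks, at least 41.8-fold lower than on normal diet (fitted difference -6.78 ± 0.35, which is no bound, adjusted p = 1.89e-04). The bounds of the other 3 were 27.1, 13.2 and 10.5-fold. The other 4 probes of this strand did not fall: A_30_P01017894 read -3.82, -2.34 and -2.74, then -3.94, -3.73 and -3.76, then -1.02, -0.90 and -1.43. It was higher at 7 weeks, by 1.85 ± 0.38 (adjusted p = 0.00955), and the 3 remaining ones had differences of 0.46, 0.65 and 0.86 that did not pass, the former 2 of which were -0.35 and -0.15 without scaling. The 4 probes of strand R were lower at 7 weeks by a smaller amount, with differences of -1.74 to -1.49. Their differences at 3 weeks were much the same, -1.71 to -1.62, with 2 called, and 7 minus 3 weeks gave -0.12 to 0.21. The 4 calls at 7 weeks were lost without normal diet replicate 1 or 3, and some without 7 week replicate 1 or 3 or 3 week replicate 3 (adjusted p up to 0.111). The 2 calls at 3 weeks were lost without any normal diet array or 3 week replicate 2 or 3 (adjusted p up to 0.121).

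**Figure D4:**
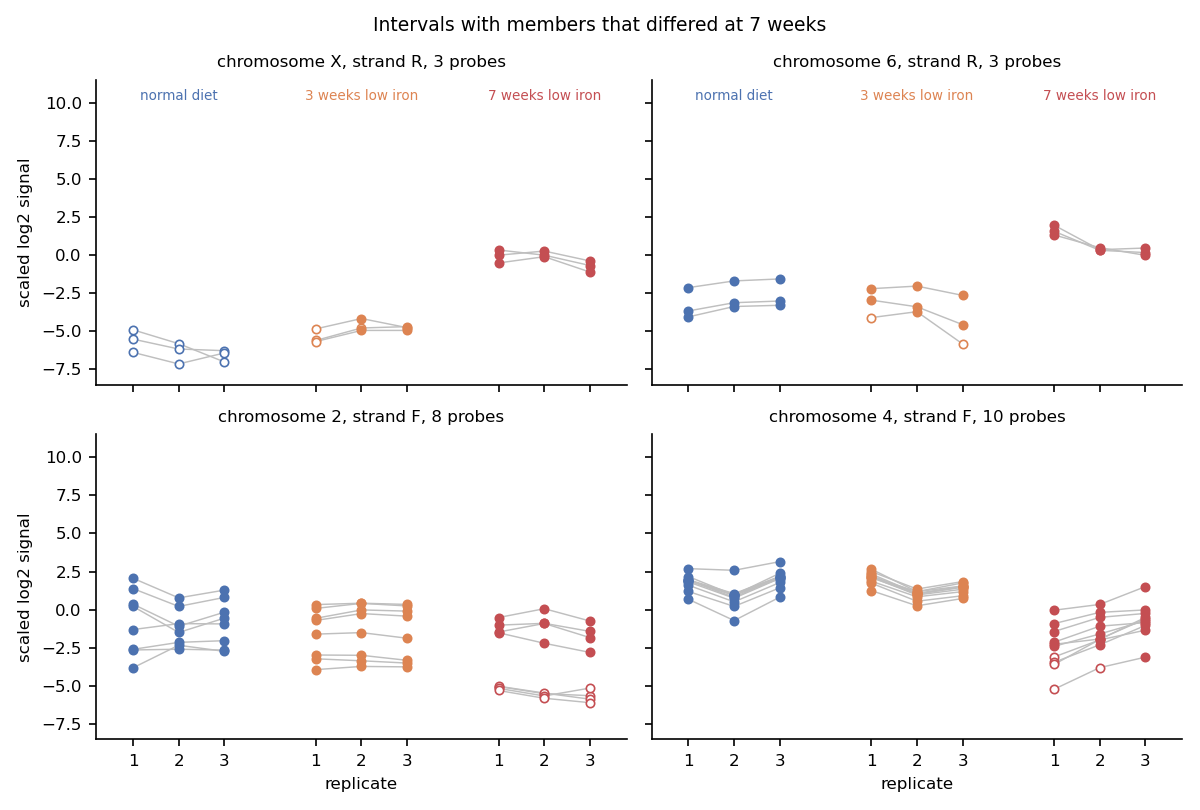
Scaled log2 signal of every tested probe of 4 intervals on the 9 arrays, filled where well above background and open where not; grey lines join the values of 1 probe within a group and imply no order. The upper plots are chrX:50407969-50410370 (R) and chr6:31078802-31079644 (R), highest at 7 weeks; in the lower left, chr2:155269145-155303251 (F), 4 of 8 probes drop below -5 at 7 weeks while the other 4 do not, and in the lower right all 10 probes of chr4:129497990-129515290 (F) are lower at 7 weeks than on normal diet.

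Other intervals fell in every probe. All 10 probes of chr4:129497990-129515290, F, were lower at 7 weeks, with differences of -4.31 to -2.05, and none differed at 3 weeks, where the differences were -0.94 to 0.48. A_30_P01028793 read 1.93, 0.80 and 2.16 on normal diet, 2.16, 1.18 and 1.55 at 3 weeks and -2.14, -1.09 and -0.85 at 7 weeks. The first 6 arrays overlapped and the 7 week arrays lay below all of them (difference -2.99 ± 0.48, adjusted p = 0.00439). The 5 probes of chr10:117021051-117038683, F, fell, with differences of -3.23 to -2.78, and A_30_P01029964 of this interval read 2.91, 1.87 and 3.19, then 2.65, 2.62 and 3.00, then -0.40, -0.77 and 0.36. In both intervals normal diet replicate 2 was the lowest of its group in the probes given here.

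In chrX:18734106-18744367, R, 3 of 3 probes went from well above background on the first 6 arrays to none at 7 weeks. A_30_P01027623 read -1.97, -1.67 and -1.74 on normal diet, -1.54, -1.55 and -1.94 at 3 weeks and -5.21, -5.68 and -6.11 at 7 weeks, at least 4.67-fold lower. The 3 probes of chr15:84752337-84752984, R, fell, with differences of -3.69 to -3.08 and 7 week replicate 1 the lowest array in each. The call of A_30_P01025461 was lost without normal diet replicate 1 or 3 (adjusted p up to 0.0785). Of the 8 largest rises at 7 weeks 6 kept their call whichever array was left out, and all 8 of the largest falls did. Some of these probes too were kept through 1 of the groups compared alone, so for them these counts are no support. All 16 kept their direction without scaling. Against replicate 3 alone the direction could not differ, as their groups did not overlap, and the differences were at least 3.55 in size.

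Marker lists moved at 7 weeks as well. Of the 8 monocyte and macrophage markers 3 were lower, with summed levels of 16.4 to 21.3, below the normal diet range. Of 6 B lineage markers 1 was higher and 1 lower (3.44 to 9.45), and of 9 neutrophil markers 1 was higher (374 to 585). Of 5 markers of mast cells, basophils and eosinophils 2 were lower, with sums of 0.519 to 0.661 against 13.3 to 23.7. Of 6 T and NK cell markers 1 was higher (sums of 22.2 to 38.0 against 17.8 to 20.1), and of 5 megakaryocyte and platelet markers 1 was lower (6.12 to 38.8 against 17.9 to 50.8). Of the 9 erythroid markers 4 were higher and 1 lower, with sums of 2503 to 3891 against 1919 to 2030. Their part in the falls and rises of the coordinate-named probes was not tested.

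Between 7 and 3 weeks of low iron diet, 2304 kept probes were higher and 938 lower at 7 weeks. Together they were 38.3% of those tested, against 39.6% of all probes, and by direction 27.2% and 11.1% against 21.9% and 17.7%. With no scaling between arrays 805 were higher and 2889 lower (median over all probes -0.92), and with normexp background 3192 and 490. Among those well above background on all 9 arrays 1995 were higher and 224 lower (52.1%, against 47.6% of all such probes, of which 32.0% were higher and 15.6% lower). This comparison uses no normal diet array, so the libraries that went against their sex label do not enter its difference. The 3 probes of chr5:22890322-22939119, R, were lower at 7 weeks, with differences of -4.57 to -4.01. A_30_P01025339 read 1.12, 0.22 and 0.48 at 3 weeks and -2.08, -3.72 and -5.19 at 7 weeks, with normal diet at -2.18, -0.99 and -0.65. Its groups at 3 and 7 weeks did not overlap (difference -4.27 ± 0.73, adjusted p = 0.00222). A_30_P01033359 (chr15:73227424-73257474, R) was well above background only at 7 weeks, at -1.93, -1.30 and -0.35, at least 24.7-fold above either other group.

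There were 134 kept probes called in opposite directions at the 2 times, 115 of them lower at 3 weeks and higher at 7. Both comparisons use the same normal diet arrays, so nothing is read from this count, and 6 of the probes are shown in the plot of opposite directions. A_30_P01031689 (chr9:89167172-89168980, F) read 3.28, 4.77 and 5.35 on normal diet, 1.96, 2.28 and 1.36 at 3 weeks and 8.23, 8.68 and 7.67 at 7 weeks. A_30_P01022460 (chrX:20570399-20571162, F) read 4.01, 5.53 and 6.03, then 2.63, 2.72 and 1.83, then 8.48, 8.59 and 8.04. A_30_P01028871 (chr9:31834945-32015745, R) read 0.81, 2.50 and 2.08, then -0.94, -1.63 and -2.07, then 4.41, 4.26 and 3.38. In these 3 probes the 3 groups did not overlap, and normal diet replicate 1 was the lowest of its group. The other tested probe of A_30_P01022460's name was not called at 3 weeks (1.49) and was higher at 7 weeks (4.83). That of A_30_P01028871's name was not called at 3 weeks (-0.26) and was lower at 7 weeks (-0.89).

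A_30_P01030759 (chr17:26911397-26917047, R) went the other way, with -2.82, -3.03 and -2.75 on normal diet, -0.67, -0.05 and -0.71 at 3 weeks and -5.37, -5.83 and -6.20 at 7 weeks. It rose by 2.40 ± 0.30 at 3 weeks (adjusted p = 0.00649). No 7 week array had it well above background, and it was there at least 2.21-fold below normal diet and 11.6-fold below 3 weeks. Of the 6 tested probes of its name, 2 were higher at 3 weeks and 1 was lower at 7 weeks.

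**Figure D5:**
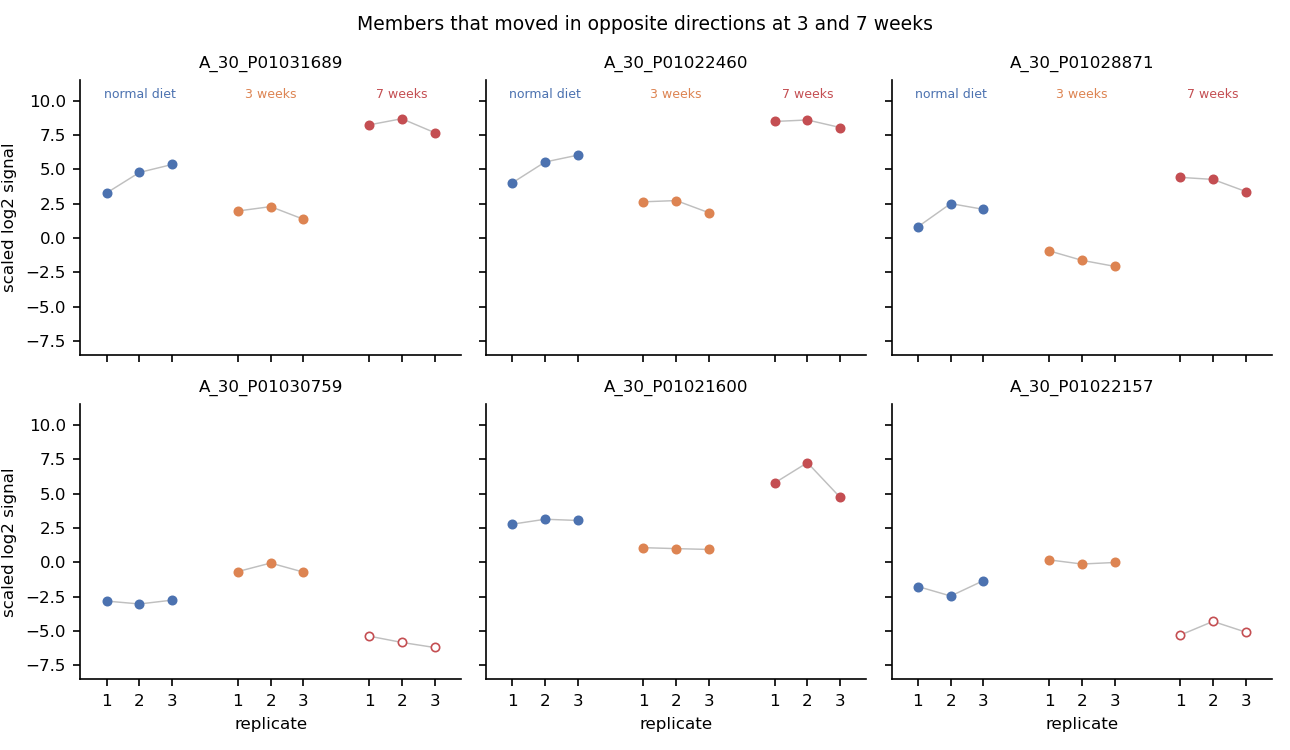
Scaled log2 signal of 6 kept probes on the 9 arrays, filled where well above background and open where not; grey lines join the values within a group and imply no order. In 4 probes the 3 week arrays are lowest and the 7 week arrays highest; in A_30_P01030759 and A_30_P01022157 the order is turned.

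Where an interval had probes for both strands, the strands were compared. There were 1067 such intervals, and 839 had kept probes on both strands. The mean differences of the strands correlated at r of 0.0900 for 3 weeks, 0.0928 for 7 weeks and 0.0840 between 7 and 3 weeks over the 827 intervals tested on both, which is a description across intervals on the same arrays. In chr2:104702675-104736600, A_30_P01028231 on strand F fell at 3 weeks from 2.99, 2.92 and 3.01 to 0.49, 0.46 and 0.40 (difference -2.53 ± 0.27, adjusted p = 0.00649), and was 3.00, 3.85 and 3.34 at 7 weeks. A_30_P01025960 on strand R read 2.11, 2.48 and 2.01, then 1.88, 2.09 and 1.39, and these groups overlapped (-0.41 ± 0.28, adjusted p = 0.360). In chr7:108209996-108216032 probes of both strands fell: A_30_P01030669 on strand R went from 7.54, 7.60 and 7.40 to 5.48, 5.21 and 5.72 at 3 weeks (-2.04 ± 0.24, adjusted p = 0.00649), and A_30_P01031375 on strand F fell from 2.79, 2.64 and 2.32 to 0.97, -0.29 and 0.52 (-2.18 ± 0.37, adjusted p = 0.0107). In 142 of the 827 intervals 1 strand had a probe higher and the other a probe lower at 7 weeks, beside 116 higher and 67 lower on both. At 3 weeks these counts were 23, 7 and 60, and between 7 and 3 weeks 169, 242 and 46. No background share was worked out for such counts, so nothing is read from them.

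Probes of 1 interval and strand were more alike. Over 9569 pairs of kept probes of the same name, the differences correlated at r of 0.402 (3 weeks), 0.313 (7 weeks) and 0.377 (7 against 3 weeks), and over the 2977 pairs well above background on all 9 arrays at 0.486, 0.493 and 0.517. Pairs of other probes for 1 RefSeq gene gave 0.394, 0.518 and 0.410 over all 4858 pairs. Over the 2843 of these well above background on all 9 arrays they gave 0.386, 0.609 and 0.499. These pairs share arrays and, within a name, a transcript or part of one, and the values are a description. Where both probes of a pair were called at 7 weeks, 852 of 1149 pairs (74.2%) went the same way, and of pairs well above background throughout 397 of 430 (92.3%) did. For the RefSeq pairs these shares were 92.7% and 96.8%. Of 1311 names with 3 or more tested probes, all probes were higher in 3 names and lower in 10 at 3 weeks, and higher in 17 and lower in 29 at 7 weeks.

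The X-linked kept probes were set beside the autosomal ones because of the sex label. At 3 weeks 19.3% of those tested on X were called, against at most 15.4% on any other chromosome, a difference that was not tested. In the other comparisons X lay within the range of the other chromosomes. At 7 weeks it had 32.2% against 23.5% to 35.7%, and between 7 and 3 weeks 38.9% against 32.4% to 43.7%. The share called over all probes on X is not given here. Among 270 on X, 8 (2.96%) read lower on both normal diet replicates 1 and 2 than on the other 7 arrays, and among 8196 on autosomes 278 (3.39%) did. The widest such gap was 1.33 on X and 1.08 on autosomes. The reverse, higher on both than on all other arrays, held for 23 on X (8.52%) and 582 on autosomes (7.10%), with gaps of up to 2.20 and 2.64. One of the 23 was A_30_P01030284 (chrX:33750475-33770425, F), at -0.16, -0.29 and -2.56 on normal diet, -5.25, -4.94 and -4.98 at 3 weeks and -2.49, -2.93 and -2.83 at 7 weeks. Its difference at 3 weeks was -4.06 ± 0.57 (adjusted p = 0.00744) and, against replicate 3 alone, -2.50. Of 5 probes of this interval 4 were lower at 3 weeks.

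A list of 51 named long noncoding RNAs was read through probes with other names; whether the coordinate-named probes read RNAs of that class was not checked. Of these 31 had a probe and 26 were tested. At 3 weeks 3 were higher and 4 lower, at 7 weeks 12 higher and 1 lower, and between 7 and 3 weeks 9 higher and 2 lower, with median differences of 0.50, 1.31 and 0.82 beside -0.20, -0.13 and 0.04 over all probes tested. Of all probes tested, 3.42% were higher and 9.77% lower at 3 weeks, 13.5% and 16.8% at 7 weeks, and 21.9% and 17.7% between them. Without scaling the median over all probes at 7 weeks was -0.94, and values of this list without scaling are not given here. Kcnq1ot1, an imprinted antisense RNA, read 2.47, 2.48 and 1.89 on normal diet, 0.95, 0.98 and 0.51 at 3 weeks and 1.89, 2.61 and 2.72 at 7 weeks, and its 3 week arrays were below all others (-1.47 ± 0.32, adjusted p = 0.0216), though 1 of its 4 tested probes passed. Mir22hg, the host transcript of a microRNA, read -2.11, -2.16 and -1.67, then 1.51, 1.03 and 0.03, then 2.50, 0.49 and -0.43. Both low iron groups were above normal diet, by 2.84 ± 0.68 (adjusted p = 0.0301) and 2.83 ± 0.68 (adjusted p = 0.0165). Malat1, a nuclear RNA found at splicing speckles, was higher at 7 weeks by 1.94 ± 0.38 (adjusted p = 0.00815). Rmrp, the RNA of RNase MRP, read -3.97, -4.24 and -5.36, then -6.56, -7.43 and -7.19, then 0.04, -1.49 and -2.29 in its 1 probe. It was higher at 7 weeks (3.28 ± 0.60, adjusted p = 0.00658). Each 3 week value lay below the dimmest well-above-background signal of its array (-4.40, -7.22 and -6.56). The fall at 3 weeks (fitted -2.53 ± 0.60, adjusted p = 0.0285) therefore has no measured size. The calls of this list were not repeated with arrays left out.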

How the data were processed

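Expression was measured on 9 single-colour Agilent arrays, 3 per group. The deposited scanner files hold spot intensity written by Agilent Feature Extraction 10.7.3.1, background-subtracted and detrended within each array, with no scaling between arrays, per the file headers, which also name mm9 as the design's build. The deposited series table holds log2 values centred on each probe's median, whose normalization is not given in the sources used here; it served as an alternative. Outlier-flagged spots were left out, spots of a probe were averaged, and log2 signal minus the array's 75th percentile was tested with limma 3.58.1 in R 4.3.3 (lmFit, eBayes, two-sided, 1 model over 3 groups). Tables used Python 3.11.15 and pandas 2.3.3. The design text calls the arrays of a group biological replicates, and their number limits the precision. For normexp (offset 50) the median spot signal stood in for the mean signal, which was not used here. Probe names other than intervals came from RefSeq accessions.

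Probes named in the text were the 8 largest rises and falls per comparison among called probes whose groups did not overlap, the 8 with the highest mean signal, X-linked calls, intervals with both strands or several probes, probes at the threshold, and those that moved in opposite directions; the parts of the rule that need nearest genes could not be applied. The members and lists were chosen with earlier results of these data known. In simulated data each probe had its spread pooled over the 3 groups. At each size 50 of 34490 probes were changed on the 3 week arrays, far fewer than were called in the real data. A known log2 change of 2 was recovered in 34.0% of 50 probes and one of 3 in 68.0%, and these shares need not hold for the real data. The alternatives tried were quantile, median and no scaling, normexp background, filters on dim probes, kept outlier spots, 2-group fits, a replicate block, each array left out, and normal diet replicate 3 alone.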

Additional observations from a re-analysis of the deposited data

Results flagged for a closer look

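Kept probes called in opposite directions at 3 and at 7 weeks numbered 134, against the same normal diet arrays. All 134 were also called in the direct limma comparison of 7 weeks minus 3 weeks (n = 3 per group). Calls in opposite directions against the same arrays fix that outcome, so it is no separate support. For the 6 of them named here the values are given. The differences were 6.33 for A_30_P01031689, 5.98 for A_30_P01022460, 5.56 for A_30_P01028871 and 4.92 for A_30_P01021600, with adjusted p of 2.99e-04 for the former 3 and 3.87e-04 for the last. They were -5.33 for A_30_P01030759 (adjusted p = 2.58e-04) and -4.91 for A_30_P01022157 (adjusted p = 2.99e-04). All 6 kept this call whichever array was left out, which the same choice favours. The call at 3 weeks against normal diet was lost without at least 1 array for A_30_P01031689, A_30_P01022460, A_30_P01022157 and A_30_P01021600, with adjusted p up to 0.0725, 0.0588, 0.0635 and 0.128. That of A_30_P01021600 was lost without any of 6 arrays, all those of the groups compared.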

How the results depend on the processing

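The number of kept probes called at 3 weeks (1091) was 710 with no scaling between arrays, an alternative chosen after seeing the data, 639 with no filter on dim probes, 2210 in a fit of the 2 groups alone, and 0 in limma when replicate 3 was the only normal diet array (1094 at an unadjusted p under 0.05). At 7 weeks (2514) it was 19 with that control and 1598 over probes well above background on all 9 arrays, where fewer were tested. With 1 array left out the counts were 211 to 1724 at 3 weeks, 1050 to 2763 at 7 weeks and 2270 to 3605 between 7 and 3 weeks. With the replicate number as a block they were 938, 2461 and 3209, and 18 of the named differences lost their call. Same-numbered arrays deviated together at r of -0.13 to 0.26, so the numbers were not taken as pairs. Where a count moved otherwise, the cause was not tested.

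Some differences turned sign. With quantile normalization this held at 7 weeks for A_30_P01027323 (-0.05) and A_30_P01031593 (-0.05), and between 7 and 3 weeks for A_30_P01018662 (-0.07), A_30_P01019512 (-0.00), A_30_P01025369 (-0.07) and A_30_P01031593 (-0.18). With no scaling it held at 7 weeks for A_30_P01031593 (-0.05) and between 7 and 3 weeks for A_30_P01025124 (-0.06), and with normexp at 7 weeks for A_30_P01017597 (0.23). Of the named differences, 57 lost their call with no scaling, 28 with quantile normalization, 23 with normexp and 182 against normal diet replicate 3 alone. Signal over background limits the falls at 7 weeks, of which 645 are bounds.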
